A study of Mus musculus with 4 samples.

Results

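The genes described here encode subunits of the AMPA and kainate receptors, 8 genes of the 29300 in the deposited table. They were chosen by symbol: Gria1, Gria2, Gria3 and Gria4 for AMPA receptors, and Grik1, Grik2, Grik3 and Grik5 for kainate receptors. The kainate receptor gene Grik4 stands outside the 8 and is described apart. Hippocampal RNA of 2 control mice and 2 surgery mice was sequenced, with all tissue taken on day 1 after the procedure. Both groups were middle-aged male wild-type C57BL/6 mice given isoflurane and, for analgesia, tramadol. Control mice were sham animals left without a fracture, and surgery mice received a nailed tibial fracture, the study's model of perioperative neurocognitive disorder (PND). With no mouse free of anesthesia in the table, the comparison concerns the fracture and not the anesthetic or analgesic. Each mouse gave 1 library of poly(A) RNA. The values are the authors' unnormalized read counts per gene, and levels are given below as CPM (counts scaled to library size) after TMM, edgeR's scaling of libraries to a common effective size.

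AMPA receptors carry most of the fast excitatory current between neurons of the hippocampus, and are assembled as tetramers from the subunits GluA1 to GluA4. Kainate receptors are a related group of tetramers that act on both sides of the synapse and also modulate transmitter release. GluK1 to GluK3 can form channels by themselves, whereas GluK4 and GluK5 need to join them. In both families a glutamine codon in the pore-lining loop, the Q/R site, can be edited to arginine in the RNA by ADAR enzymes. Editing is nearly complete in Gria2, where it makes the channel poorly permeable to calcium, and partial in Grik1 and Grik2. Read counts per gene do not measure editing.

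The coding sequence around that site is shown because it is found in all 8 genes and because their base composition, which returns below with the counts, already differs there. Each line holds 42 bases of the coding strand from the mm10 (GRCm38) genome and the GENCODE M21 annotation, all within 1 exon, with the codon of the Q/R site in capitals.
Gria1: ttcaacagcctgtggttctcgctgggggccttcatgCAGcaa
Gria2: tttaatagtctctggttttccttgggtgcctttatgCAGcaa
Gria3: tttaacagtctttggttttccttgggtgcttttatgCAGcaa
Gria4: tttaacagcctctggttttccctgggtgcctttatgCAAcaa
Grik1: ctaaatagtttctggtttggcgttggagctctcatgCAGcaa
Grik2: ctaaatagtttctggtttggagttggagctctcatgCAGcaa
Grik3: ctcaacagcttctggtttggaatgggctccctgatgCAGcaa
Grik5: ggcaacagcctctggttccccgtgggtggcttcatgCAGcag
They lie on the plus strand at chr11:57243058-57243099 for Gria1, chrX:41610229-41610270 for Gria3 and chr4:125691171-125691212 for Grik3. On the minus strand they lie at chr3:80706908-80706949 for Gria2, chr9:4464134-4464175 for Gria4, chr16:87940539-87940580 for Grik1, chr10:49244326-49244367 for Grik2 and chr7:25022494-25022535 for Grik5. All 8 genes hold a glutamine codon there in the genome, CAG in 7 and CAA in Gria4. Grik1 and Grik2 shared 41 of the 42 bases, Gria2 and Gria3 39, and Grik2 and Grik5 26. The GC content of the window was 40.48% in Gria2 and 42.86% in Grik2, against 57.14% in Gria1 and 64.29% in Grik5. The whole coding sequences followed the same order, at 44.7%, 45.3%, 51.67% and 61.66%. At the third position of codons the GC content was 48.36% in Gria2, 49.01% in Grik2, 63.95% in Gria1 and 80.39% in Grik5.

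Between 15763432 and 18573386 reads were counted in a library, on 24238 to 25324 genes, and 17144 genes passed the filter on low counts, all 8 receptor genes among them. Marker genes of neurons were abundant, at summed levels of 4613 and 4727 CPM in control mice and 4815 and 4991 CPM in surgery mice, and those of CA1, CA3 and dentate gyrus were all present. The sum over 4 markers of excitatory neurons, which carry most AMPA receptors, was lower in the surgery mice, at 6977 and 6814 CPM against 5733 and 5676 CPM, with 1 rising and 2 falling. Marker calls are to be read against the 13.1% of all genes called higher and 12.8% called lower. The sum over 4 CA1 markers was 764 and 788 CPM in control mice and 553 and 526 CPM in surgery mice, and 3 of the 4 fell. The CA3 sum was 116 and 103 against 93.7 and 86.7 CPM with no marker called, although the median log2 fold change of its 4 markers was 0.06. The sum for oligodendrocyte precursors was 143 and 154 against 129 and 128 CPM with 1 of 4 falling. For 6 astrocyte markers the sums were 3305 and 3557 CPM against 3883 and 4105 CPM, with 3 rising and 1 falling. Median log2 fold changes moved once the trends with transcript length and GC content, described below, were removed. They went from 0.01 to -0.31 for neurons, from -0.15 to -0.12 for excitatory neurons and from -0.52 to -0.27 for CA1. For CA3 the change was from 0.06 to 0.17, for oligodendrocyte precursors from -0.35 to -0.15 and for astrocytes from 0.25 to 0.04. The choroid plexus sum was 127 CPM in control mouse 1 against 2031 to 5399 CPM in the other 3 mice, and that of oligodendrocytes was 3927 CPM in surgery mouse 2 against 5329 to 6183 CPM. Mitochondrially encoded transcripts took 3.05% and 2.7% of the counts in control mice, and 5.1% and 5.14% in surgery mice. The part of these differences in the results below was not tested. In bulk tissue, fewer cells of a type and less RNA per cell cannot be told apart. Each group holds 2 mice, and p-values measure the spread among these 4 libraries.

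Of the 8 receptor genes, Gria2, Gria3 and Grik2 rose in the surgery mice and Grik5 fell, and the other 4 did not pass the test. A gene passed with an adjusted p under 0.05 in the quasi-likelihood test of edgeR, adjusted by Benjamini-Hochberg over all 17144 genes. Of all genes tested, 26.0% passed, 13.1% higher and 12.8% lower, so 4 of 8 genes is to be read against a table in which a large share of the genes was called. Differentially expressed genes (DEGs), which also had to differ 1.5-fold or more upward or reach a ratio of 0.67 or less, made up 9.01% of genes, 6.75% higher and 2.25% lower, and Grik2 was the only one among the 8. The CPM of the control and surgery mice did not overlap for any of the 8, against 65.5% of all genes (33.2% higher and 32.2% lower), which with 2 mice a group is a weak criterion: 5 of the 8 lay higher and 3 lower. None of the 4 calls was kept in edgeR, with condition as the only term, once each library's trends with the length and GC content of transcripts had been removed, as given further on. When the replicate number was added to that fit as a block, Grik5 kept its call (-0.24, adjusted p = 0.026), Gria1 gained one (-0.29, adjusted p = 0.01), and the other 6 were not called. That fit called 13.6% of all genes.

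**Figure D1:**
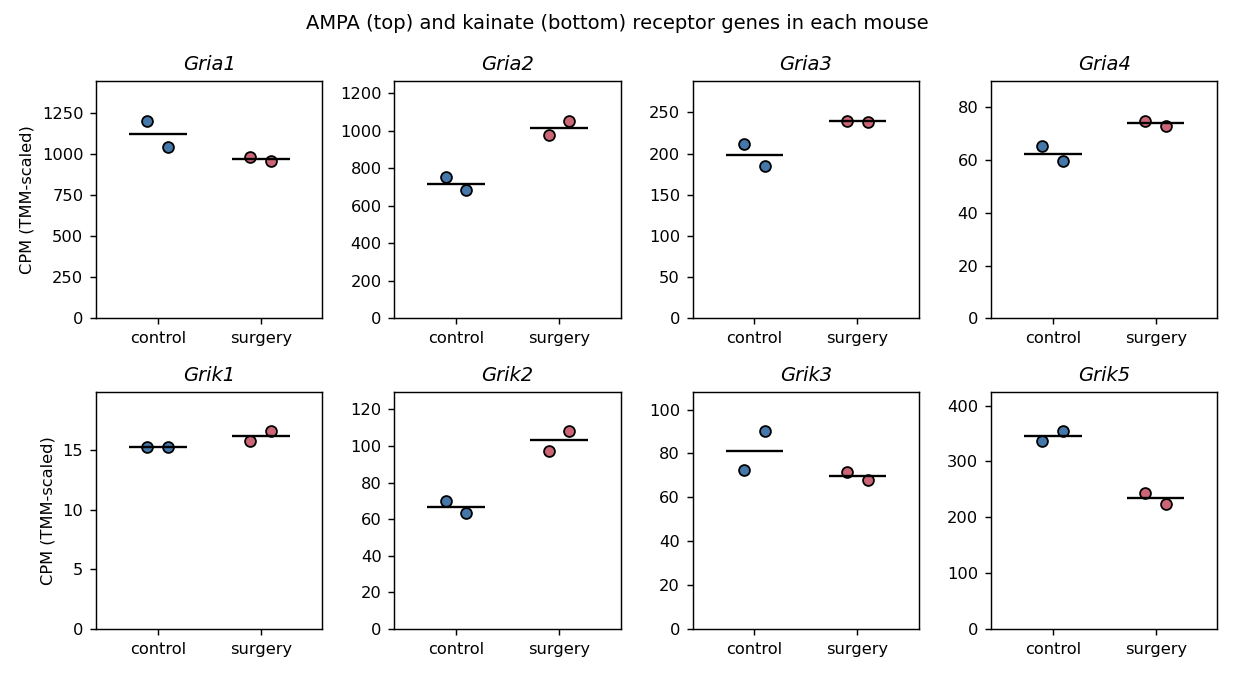
Level of each receptor gene in each mouse, in CPM after TMM scaling, with a separate vertical axis from 0 for each gene. Circles are mice, 2 control (blue) and 2 surgery (red), and bars are group means. Gria2, Gria3, Gria4, Grik1 and Grik2 lie higher in both surgery mice, and Gria1, Grik3 and Grik5 lower.

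Among the AMPA receptor genes, Gria2 rose and was the most changed. Gria2 encodes GluA2, the subunit whose edited form sets the calcium permeability of the receptor (ENSMUSG00000033981, chr3:80681450-80802835, minus strand). Its level was 752 and 686 CPM in the control mice and 976 and 1055 CPM in the surgery mice. Both surgery mice stood above both control mice by more than either group's spread, with means of 719 ± 46.4 and 1016 ± 56.1 CPM (SD, n = 2 mice each). The fold change was 1.41, a log2 fold change of 0.50 (SE 0.07, edgeR adjusted p = 0.0063), and it was larger than that of 83.0% of all genes tested. The call held in edgeR without any 1 of the 4 mice, with log2 fold changes from 0.43 to 0.56. With the GC and length trends removed the log2 fold change of Gria2 was -0.01 (SE 0.07, edgeR adjusted p = 0.96).

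Gria1 encodes GluA1, the subunit whose delivery to synapses is a classical step of hippocampal long-term potentiation (ENSMUSG00000020524, chr11:57011387-57330244, plus strand). Its mean CPM over the 4 mice was the highest of the 8, with 1204 and 1040 CPM in the control mice and 983 and 960 CPM in the surgery mice, where Gria2 had the higher mean. The groups did not overlap, but the gap between control mouse 2 and surgery mouse 1 was narrower than that between the control mice. Its log2 fold change was -0.21 (SE 0.08, edgeR adjusted p = 0.11), from a mean of 1122 ± 116 to 971 ± 16.2 CPM, and the gene did not pass. With all 4 mice it passed in DESeq2 (-0.22, adjusted p = 0.029) and in edgeR with the replicate number as a block (-0.20, adjusted p = 0.045). The edgeR value with condition as the only term rested on which control mouse was used. It was -0.10 (adjusted p = 0.40) without control mouse 1, and -0.31 without control mouse 2, where it passed in edgeR (adjusted p = 0.038). Its value was farther from 0 with the trends removed, at -0.29 (SE 0.09, edgeR adjusted p = 0.14).

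Gria3, which encodes GluA3, a frequent partner of GluA2, rose by less (ENSMUSG00000001986, chrX:41400854-41678601, plus strand). It stood at 212 and 185 CPM in the control mice and at 240 and 238 CPM in the surgery mice. The surgery mice lay close together and above both control mice, which differed more from each other. Its log2 fold change of 0.27 (SE 0.08) had an edgeR adjusted p of 0.045, close to the threshold. The call was lost in edgeR without control mouse 2 (0.17, adjusted p = 0.20), surgery mouse 1 (0.25, adjusted p = 0.09) or surgery mouse 2 (0.28, adjusted p = 0.071). It held without control mouse 1 (0.37, adjusted p = 0.021). The value turned to -0.15 (SE 0.08, edgeR adjusted p = 0.30) with the trends removed.

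Gria4 encodes GluA4, which in the adult hippocampus is found mainly in interneurons (ENSMUSG00000025892, chr9:4417896-4796234, minus strand). It had 1127 and 1089 counts in the control mice against 1196 and 1231 in the surgery mice, whose libraries were smaller, which gave 62.5 ± 4.13 and 74.0 ± 1.45 CPM (SD, n = 2 mice each) without overlap. Gria4 did not pass, with a log2 fold change of 0.24 (SE 0.08, edgeR adjusted p = 0.062). It passed in edgeR with scaling by library totals alone (0.29, adjusted p = 0.035), with a higher minimum count (0.27, adjusted p = 0.035) and with the replicate number as a block (0.24, adjusted p = 0.041). It was -0.11 (SE 0.08, adjusted p = 0.47) in edgeR with the trends removed. The summed level of 7 interneuron markers overlapped between the groups, at 931 and 956 CPM in the control mice and 796 and 942 CPM in the surgery mice.

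No AMPA receptor gene reached the DEG threshold in edgeR, although all 4 had an unadjusted p under 0.05, as did 39.4% of all genes tested, and DESeq2 gave 0 DEGs as well. The median log2 fold change of the 4 was 0.26, against 0.0125 over all genes tested, and -0.13 with the trends removed, against -0.0303.

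Among the 4 kainate receptor genes of the 8, the 2 that changed went in opposite directions. Grik4, a kainate receptor gene outside the 8, fell and is given further on. Grik2 encodes GluK2, a principal kainate receptor subunit of the hippocampus (ENSMUSG00000056073, chr10:49094833-49788766, minus strand). Its level was 70.1 and 63.4 CPM in the control mice and 97.2 and 108 CPM in the surgery mice. Both surgery mice were well above both control mice, with means of 66.7 ± 4.79 and 103 ± 7.74 CPM (SD, n = 2 mice each). The fold change was 1.54, a log2 fold change of 0.62 (SE 0.09, edgeR adjusted p = 0.006), larger than in 88.0% of all genes tested. Its adjusted p stayed under 0.05 in edgeR without any 1 mouse. It slipped under the DEG fold threshold without control mouse 2 or surgery mouse 2, at 0.55 in each case, and was 0.69 without control mouse 1. With the trends removed the value was 0.13 (SE 0.08, edgeR adjusted p = 0.36).

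Grik5 encodes GluK5, the high-affinity subunit that joins GluK2 in many neuronal kainate receptors (ENSMUSG00000003378, chr7:25009849-25072346, minus strand). Its level was 336 and 354 CPM in the control mice and 244 and 224 CPM in the surgery mice. The drop from 345 ± 13.1 to 234 ± 13.8 CPM (SD, n = 2 mice each) was several times the spread of either group. The fold change of 0.679 lay just outside the DEG threshold of 0.67. On the log2 scale it was -0.56 (SE 0.07, edgeR adjusted p = 0.0048), lower than in all but 5.6% of the genes tested. Grik5 met the DEG threshold without control mouse 1 (-0.60) and without surgery mouse 1 (-0.64), and its adjusted p stayed under 0.05 in edgeR without any 1 mouse. It was -0.24 (SE 0.07, edgeR adjusted p = 0.12) with the trends removed.

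Grik3 encodes GluK3, a subunit of low glutamate affinity (ENSMUSG00000001985, chr4:125490700-125714173, plus strand). It was at 72.4 and 90.1 CPM in the control mice and at 71.7 and 68.0 CPM in the surgery mice. Control mouse 1 was level with the surgery mice, and control mouse 2 stood apart. The log2 fold change was -0.22 (SE 0.11, edgeR adjusted p = 0.20). Without control mouse 1 it was -0.37 and passed in edgeR (adjusted p = 0.033), and without control mouse 2 it was -0.06 (adjusted p = 0.74), so the value was that of control mouse 2. With the trends removed it was -0.06 (SE 0.10, edgeR adjusted p = 0.80).

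Grik1 encodes GluK1, which in the hippocampus is known mainly from interneurons (ENSMUSG00000022935, chr16:87895901-88290258, minus strand). It was the least abundant of the 8, the reads numbering 264 and 280 for control mice and 252 and 280 for surgery mice. These counts gave 15.3 CPM in each control mouse and 15.8 and 16.6 CPM in the surgery mice. The log2 fold change was 0.08 (SE 0.12, edgeR adjusted p = 0.65), with the largest standard error of the 8 genes. The median log2 fold change of the 4 kainate receptor genes was -0.07, and -0.08 with the trends removed.

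**Figure D2:**
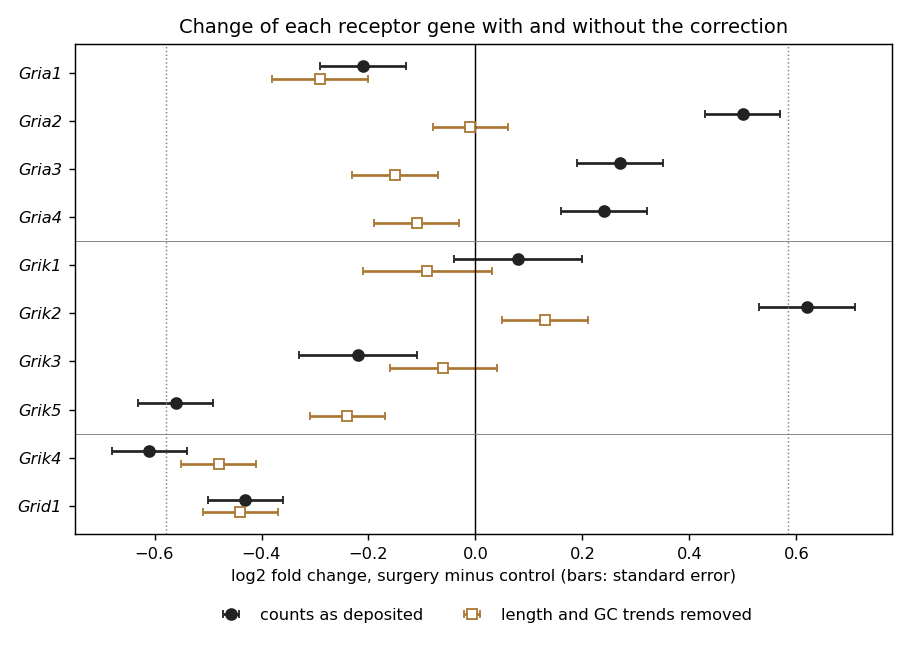
The log2 fold change of surgery over control mice for the 8 receptor genes and for Grik4 and Grid1, from the deposited counts (filled circles) and with the length and GC trends removed (open squares), bars being standard errors and dotted lines the DEG fold thresholds of 1.5 and 0.67. Gria2, Gria3 and Gria4 move from above 0 to 0 or below, Grik2 and Grik5 move toward 0, and Grik4 and Grid1 change little.

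Grik4 and Grid1 are related glutamate receptor genes that stand outside the 8. Grik4, which encodes the second high-affinity kainate subunit, GluK4, fell from 94.9 and 97.7 CPM in the control mice to 63.5 and 62.8 CPM in the surgery mice. Its log2 fold change was -0.61 (SE 0.07, edgeR adjusted p = 0.0045), and it was a DEG. Grid1, a delta receptor gene whose product acts as a synaptic organizer, fell from 91.5 and 94.9 CPM to 69.7 and 69.1 CPM, a log2 fold change of -0.43 (SE 0.07, edgeR adjusted p = 0.0072). Both kept their calls in edgeR with the trends removed, Grik4 at -0.48 (adjusted p = 0.037) and Grid1 at -0.44 (adjusted p = 0.041), and without any 1 mouse. With the trends removed, 1.74% of all genes passed, 0.612% higher and 1.13% lower. The use of strand in counting is not given in the sources used here. None of the 8 receptor genes has exons that overlap a gene on the opposite strand, and at most 0.317% of their 75-base windows occur in another gene.

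Compared per length of annotated exon, Gria1 led all 8 genes, at 199 and 172 CPM per kilobase in the control mice against 163 and 159 in the surgery mice. In the control mice Grik5 came next (65.0 and 68.5 CPM per kilobase), before Gria2 (48.4 and 44.1), Gria3 (21.5 and 18.8), Gria4 (10.4 and 9.45), Grik3 (mean 9.06), Grik2 (5.29 and 4.78) and Grik1 (2.28 in each mouse). Gria4 and Grik3 overlapped there, and the other neighbours did not. In the surgery mice Gria2 (62.8 and 67.9 CPM per kilobase) stood above Grik5 (47.2 and 43.4), and Grik2 (7.34 and 8.16) overlapped Grik3 (7.99 and 7.58). Over the 4 mice together the order of Gria2 and Grik5, which differed between the groups, and that of Grik2 and Grik3 depended on the length used. The orders within each group are given here per length of annotated exon only. For Gria2 and Grik5 the means over the 4 mice were 55.8 and 56.0 CPM per kilobase of all annotated exons, and 83.6 and 77.0 per kilobase of the longest coding transcript, the 2 lengths being 15548 and 10371 bases for Gria2 and 5168 and 3763 for Grik5. For Grik2 and Grik3 the means were 6.39 and 8.42 CPM per kilobase of all exons, and 8.99 and 8.42 per kilobase of the longest coding transcript.

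In the deposited counts the make-up of each family differed between the groups. Shares were not computed with the trends removed. The shifts in the ratios of Gria1 to Gria2 and of Grik5 to Grik2 were, and they were smaller then. Of the AMPA receptor counts per kilobase, Gria1 held 71.3% and 70.4% in the control mice against 62.1% and 60.5% in the surgery mice, a difference of -9.52 percentage points. Gria2 held 17.3% and 18.1% against 24.0% and 25.9%, Gria3 7.68% in each control mouse against 9.32% and 9.21%, and Gria4 3.71% and 3.87% against 4.55% and 4.41%. The ratio of Gria1 to Gria2 was 4.01 in the control mice and 2.46 in the surgery mice. Its log2 value was 2.04 and 1.96 against 1.37 and 1.23, and the gap between groups was many times the spread within them. Such a ratio is taken within a library, so the scaling between libraries does not enter it, while the GC trend does. The shift in log2 ratio, -0.70 from the deposited counts, was -0.28 as the difference of the 2 log2 fold changes with the trends removed, and 0.05 with GC content taken from 1 transcript per gene.

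Over the 4 kainate receptor genes of the 8, Grik5 held 80.6% and 80.0% of the counts per kilobase in the control mice against 72.7% and 70.4% in the surgery mice. Grik4 was left out of these sums. At means of 16.1 CPM per kilobase in the control mice and 10.6 in the surgery mice, it stood above Grik3 (9.06 and 7.79). Grik2 held 6.57% and 5.58% against 11.3% and 13.2%. Grik3 held 10.9% ± 1.2 (SD, n = 2) against 12.3% in each surgery mouse, and Grik1 2.83% and 2.66% against 3.62% and 4.01%. The ratio of Grik5 to Grik2 was 13.3 in the control mice and 5.85 in the surgery mice, with log2 values of 3.62 and 3.84 against 2.69 and 2.41. That shift of -1.18 was -0.37 with the trends removed and -0.10 with GC content taken from 1 transcript per gene. The summed AMPA receptor counts per kilobase were 3.15 times those of the same 4 kainate receptor genes in the control mice and 4.14 times in the surgery mice. The log2 ratio was 1.79 and 1.51 against 2.01 and 2.09, and it was not computed with the trends removed. The difference of 0.40 was 0.26 without control mouse 2. Shares within a family depend on each other, and Gria1 and Grik5 make up most of these sums. With 2 mice against 2, the two-sided exact permutation test cannot give a p under 0.333, and it gave 0.333 for each share and ratio.

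**Figure D3:**
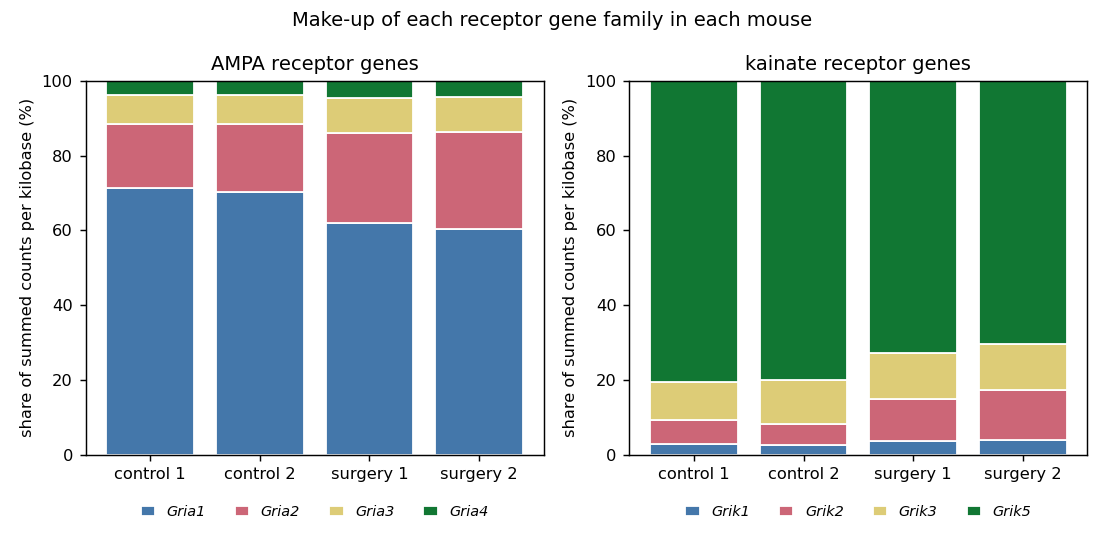
Share of each gene in the summed counts per kilobase of its family, in percent, for each of the 4 mice, with AMPA receptor genes on the left and kainate receptor genes on the right. Grik4 is left out of the kainate sums. Gria1 takes 70.4% to 71.3% in the control mice and 60.5% to 62.1% in the surgery mice, and Grik5 80.0% to 80.6% and 70.4% to 72.7%.

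The log2 fold changes of the 8 genes followed the GC content of their transcripts. Gria2 (41.3% GC), Grik2 (41.6%), Gria3 (42.6%) and Gria4 (43.8%) were higher in the surgery mice, Grik1 (47.1%) had the value nearest 0, and Gria1 (48.7%), Grik3 (54.2%) and Grik5 (60.8%) were lower. Over the 8 genes Spearman's rho was -0.98, a description over genes that share the same 4 libraries. Over 17120 genes with a GC content rho was -0.64. The eighth of genes with the lowest GC content, where Gria2, Gria3 and Grik2 lie, had a median log2 fold change of 0.60, and the eighth with the highest, where Grik5 lies, had -0.34. Against these medians Gria2 at 0.50 and Grik2 at 0.62 lay near the median of their eighth, Gria3 at 0.27 lay well below it, and Grik5 at -0.56 lay below the median of its own. Gria1 at -0.21 stood below the 0.04 of its eighth. With the trends of each library with length and GC removed, rho over all genes was -0.0407 and over the 8 genes -0.60. No receptor gene of the 8 then passed in edgeR with condition as the only term, and 2 of them, Gria1 and Grik5, had an unadjusted p under 0.05, as did 22.1% of all genes. None was a DEG either, against 0.776% of all genes (0.414% higher).

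The correction depends on how GC content is defined for genes with several transcripts. When it was taken from the longest coding transcript of each gene, a choice made after the data were seen, the GC content of Gria2 was 36.8% and its corrected log2 fold change -0.35 (SE 0.06, edgeR adjusted p = 0.052). That of Grik2 was -0.12 at a GC content of 37.9%, while Gria1 (-0.30), Grik5 (-0.22) and Gria3 (-0.11) stayed near their values under the first correction. Whether the trend with GC content arose in the tissue or in the preparation of the libraries was not tested.

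**Figure D4:**
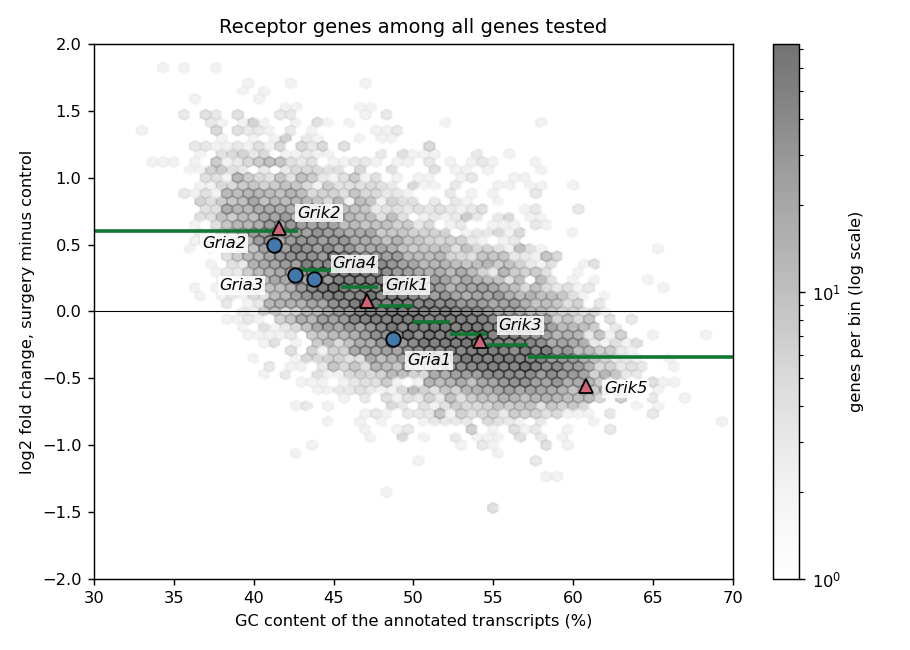
GC content of the annotated transcripts in percent against the log2 fold change of surgery over control mice, with all genes tested as hexagons shaded by their number on a log scale (87 genes lie outside the axes), and AMPA (circles) and kainate (triangles) receptor genes marked. Horizontal bars are medians of 8 equal groups of genes by GC content, from 0.60 at the lowest to -0.34 at the highest, and Gria2 and Grik2 lie near the bar of their group while Gria1, Gria3 and Grik5 lie below theirs.

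Auxiliary subunits and other partners of the receptors were described through 5 lists with 47 genes, all of them tested. In the surgery mice 6 rose, 16 fell and 25 did not pass, with a median log2 fold change of -0.21. Over all genes tested 13.1% were called higher and 12.8% lower, 26.0% in all, and the median was 0.0125. With the trends removed the median was -0.06 and 2 genes passed, against 1.74% of all genes. The 6 that rose had transcripts of 38.2% to 53.1% GC, and the 16 that fell of 47.8% to 64.1%.

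Of 19 AMPA receptor auxiliary subunits and assembly factors, 1 rose and 6 fell, where 13.1% of all genes were called higher and 12.8% lower. Cpt1c, an endoplasmic reticulum protein that controls the surface delivery of GluA1, went from 142 ± 5.05 CPM in the control mice to 101 ± 5.46 CPM in the surgery mice, a log2 fold change of -0.50 (SE 0.07, edgeR adjusted p = 0.0061). Shisa7, a member of the CKAMP family of auxiliary proteins, fell by 0.45 on the log2 scale, from 381 ± 22.9 to 278 ± 11.8 CPM (edgeR adjusted p = 0.0068). Gsg1l, an auxiliary subunit of the claudin family, was the only DEG of the list, at 47.8 and 63.4 CPM against 38.0 and 29.2 CPM (log2 fold change -0.73, SE 0.17, edgeR adjusted p = 0.026), and is named with its values in view. Its call was lost in edgeR without control mouse 2 (-0.51, adjusted p = 0.073) or surgery mouse 2 (-0.55, adjusted p = 0.056). Cnih2, the cornichon protein that slows GluA channel closing and the gene of the list with the highest mean CPM over the 4 mice, was at 468 and 416 CPM in the control mice and at 363 and 235 CPM in the surgery mice. It did not pass in edgeR (-0.56, SE 0.19, adjusted p = 0.071), and the surgery mice differed. Cnih2 passed at -0.93 without surgery mouse 1 (edgeR adjusted p = 0.0012), and was at -0.28 without surgery mouse 2 (edgeR adjusted p = 0.063). No gene of this list passed in edgeR with condition as the only term and the trends removed, against 1.74% of all genes, and 4 of 19 had an unadjusted p under 0.05, near the 22.1% of all genes. With the replicate block added, Cpt1c (-0.27, edgeR adjusted p = 0.019) and Shisa7 (-0.23, edgeR adjusted p = 0.02) were called, and Cnih2 was not (-0.27, edgeR adjusted p = 0.069). That fit called 13.6% of all genes.

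The kainate receptor has a pair of auxiliary subunits of its own, Neto1 and Neto2, and they differed. Neto2 stood at 27.7 and 25.3 CPM in the control mice and 49.3 and 43.7 CPM in the surgery mice, and rose by 0.81 on the log2 scale (SE 0.10, edgeR adjusted p = 0.005). Neto1 stood at 109 and 98.3 CPM against 97.5 and 104 CPM, with overlapping groups and a log2 fold change of -0.04 (SE 0.08, edgeR adjusted p = 0.73). Both transcripts are poor in GC, at 38.2% and 40.0%, within the eighth of genes whose median log2 fold change was 0.60. With the trends removed Neto2 was at 0.04 (edgeR adjusted p = 0.89) and Neto1 was lower, at -0.66 (edgeR adjusted p = 0.028), so which of the pair was called depended on the correction.

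Of 13 scaffold and trafficking partners, 2 rose and 5 fell, against the same shares of all genes, 13.1% and 12.8%. Dlg4, the gene of the postsynaptic scaffold PSD-95, fell from 896 ± 27.2 to 699 ± 27.1 CPM (log2 fold change -0.36, SE 0.06, edgeR adjusted p = 0.0091). Nsg1, an endosomal protein of receptor recycling, fell by 0.34 on the log2 scale (edgeR adjusted p = 0.009). Nsf, the fusion ATPase that binds the GluA2 tail, went from 1293 ± 15.5 to 1116 ± 10.2 CPM, a log2 fold change of -0.21 (SE 0.06, edgeR adjusted p = 0.034), and its call was lost without any 1 of the 4 mice (adjusted p from 0.069 to 0.11). None of the 13 passed in edgeR with condition as the only term once the trends were removed by the first correction, against 1.74% of all genes. Of the 13, 4 then had an unadjusted p under 0.05, against 22.1%. The correction moved Dlg4 toward 0 (-0.18, edgeR adjusted p = 0.24) and Nsf away from it (-0.34, edgeR adjusted p = 0.053). Dlg4 stayed called, at -0.54 (edgeR adjusted p = 0.035), when GC content was taken from its longest coding transcript. It was also called when the replicate block was added to the first correction, a fit that called 13.6% of all genes.

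Of the 3 genes of the ADAR family 1 was called, where 12.8% of all genes were called lower and 26.0% in all. Adar was lower, from 175 ± 2.83 to 148 ± 2.04 CPM (log2 fold change -0.24, SE 0.06, edgeR adjusted p = 0.028), a call lost without any 1 of the 4 mice (adjusted p from 0.072 to 0.098). Adarb1, whose product ADAR2 edits the Q/R site of Gria2, was at 239 and 225 CPM in the control mice and 221 and 196 CPM in the surgery mice and did not pass (-0.15, SE 0.08, edgeR adjusted p = 0.20). It was -0.26 (edgeR adjusted p = 0.054) without surgery mouse 1 and -0.06 (edgeR adjusted p = 0.66) without surgery mouse 2. None of the 3 had, with the trends removed, an unadjusted p under 0.05 in edgeR, against 22.1% of all genes.

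Of 10 secreted and adhesion partners, 2 rose and 4 fell, against 13.1% and 12.8% of all genes. Lrrtm2 and Lrrtm1 are related postsynaptic adhesion proteins that hold AMPA receptors at synapses. Lrrtm2 rose from 36.9 ± 2.3 to 63.9 ± 0.847 CPM (log2 fold change 0.79, SE 0.08, edgeR adjusted p = 0.0045), and Lrrtm1 fell by 0.44 (SE 0.06, edgeR adjusted p = 0.0061). Their transcripts hold 39.7% and 56.0% GC. With the trends removed and condition as the only term neither passed (0.15 and -0.22, edgeR adjusted p of 0.33 and 0.15). Olfm1, a secreted olfactomedin that binds AMPA receptors, fell from 1052 ± 73.0 to 809 ± 66.3 CPM (log2 fold change -0.38, edgeR adjusted p = 0.019), and lost its call without control mouse 1 (adjusted p = 0.053). C1ql3, a synaptic C1q-like protein named with its values in view, was at 24.9 and 22.0 CPM in the control mice and 34.5 and 40.2 CPM in the surgery mice. It rose by 0.67 on the log2 scale (SE 0.12, edgeR adjusted p = 0.01) and, at 53.1% GC, stayed called with the trends removed (0.79, edgeR adjusted p = 0.038).

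**Figure D5:**
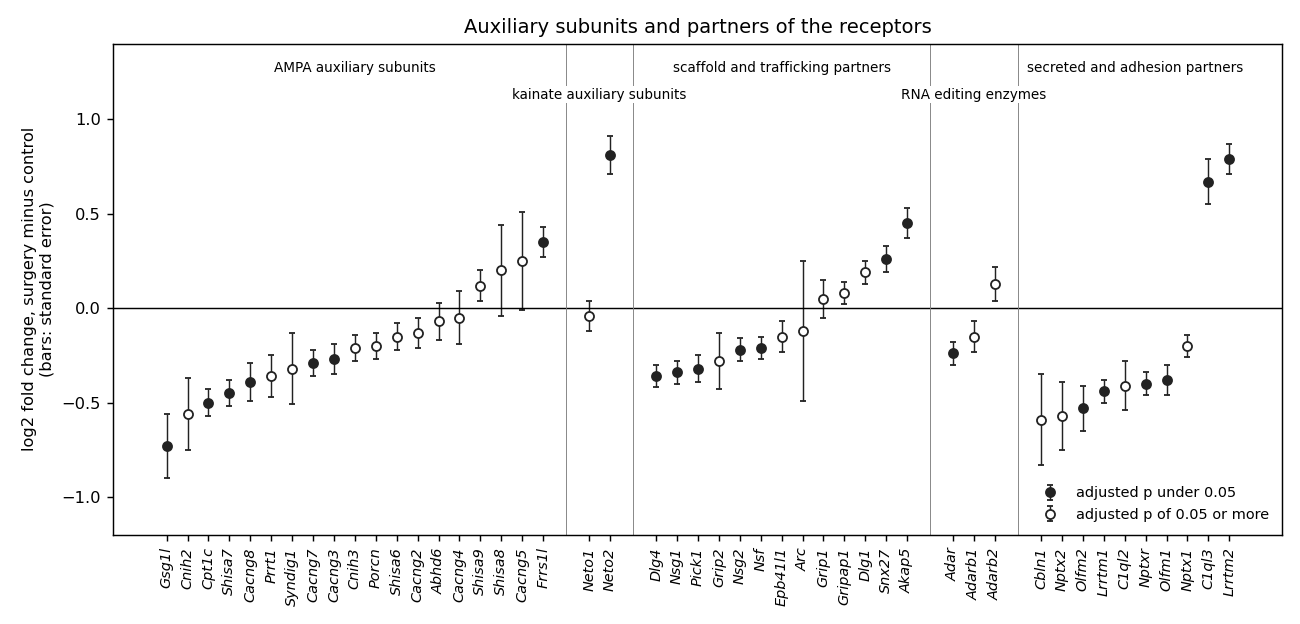
The log2 fold change of surgery over control mice for each of the 47 auxiliary subunits and partners, grouped by list, with standard errors as bars and filled circles for an edgeR adjusted p under 0.05. Neto2, C1ql3 and Lrrtm2 lie highest, at 0.81, 0.67 and 0.79, and most of the AMPA auxiliary subunits lie below 0.

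The genes whose profile over the 4 libraries lay nearest to those of Gria2 and Grik2 were found by the Euclidean distance of log2 CPM centred on each gene's mean. For Gria2 they were Kpna3, an importin (distance 0.021), Ncapg2, a condensin subunit (0.026), and Grm5, a metabotropic glutamate receptor (0.027). For Grik2 they were Fnip1 (0.013), Ap5m1 (0.026) and A830018L16Rik (0.026). Their log2 fold changes ran from 0.49 to 0.64 and the GC contents of their transcripts from 39.8% to 46.3%. With 4 libraries such likeness mostly restates a like difference between the groups.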

How the data were processed

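Hippocampal RNA of 2 control and 2 surgery mice was sequenced as poly(A) libraries on day 1. The authors mapped the reads to mm10 with HISAT and deposited the count of reads per gene and mouse without normalization. The submitters' processing notes list HISAT2 2.1.0, TopHat2, Bowtie2 2.2.3 and HTSeq 0.6.0. The deposited table also holds the authors' own comparison, which was not used. Columns were matched to mice by name, 24 date-like symbols were restored from their identifiers, and 29238 of 29300 identifiers occur in GENCODE M21, 93.2% with the same coordinates (those of Grik1 and Grid1 differ).

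The tests used edgeR 4.0.16 under R 4.3.3: filterByExpr with a minimum count of 10, TMM, and the quasi-likelihood test (glmQLFit without its legacy form) with condition as the only term and Benjamini-Hochberg adjustment over 17144 genes. A standard error is the log2 fold change over the root of its F. Length and GC trends were fitted per library with mgcv 1.9.3 (basis size 8) and entered as offsets. DESeq2 1.42.0 was an alternative, besides other normalizations, filters, a replicate block, thinned counts and leaving out each mouse. On simulated counts the edgeR test recovered 86 of 100 genes changed 2-fold and 60 of 100 changed 1.5-fold, and called 9 unchanged genes, with 16836 genes tested in all. The simulated counts held no trend with length or GC content, unlike the deposited counts. These numbers therefore do not give the error rate of the calls above. Replicates differed by more than sampling noise (chi-square per degree of freedom 13.5 in control and 8.48 in surgery mice). All 8 receptor genes are named, with Grik4 and Grid1, and, in each partner list, the 2 genes of lowest adjusted p and that of highest mean CPM. For the most changed gene of each family, the 3 nearest profiles are named. An item of the naming rule is not reported here. The receptor genes, partner lists and marker lists were chosen with earlier results of these data known.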

Additional observations from a re-analysis of the deposited data

How the results depend on the processing

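The limits are those of 2 mice a group and of 1 table of counts. Over 16 alternatives to the main edgeR fit, the DESeq2 test among them, the log2 fold changes of 23 named genes gave 368 values. Of these values, 297 kept their direction and their side of the threshold, 43 lost a call (26 under the length and GC corrections), 13 gained a call and 15 changed sign. The 15 were Gria2 (-0.01 with the length and GC correction, -0.01 with the replicate block and that correction, and -0.35 with GC content from 1 transcript per gene), Gria3 (-0.15, -0.15 and -0.11 in the same order), Gria4 (-0.11, -0.11 and -0.06), Grik1 (-0.09, -0.09 and -0.04), Grik2 (-0.12) and Neto2 (-0.07), the latter both with 1 transcript per gene, and Neto1 (0.03 without control mouse 1). Gria4, Grik1 and Neto1 were not called before or after the change of sign. The length and GC correction left 0 of 2 AMPA receptor genes called, 0 of 2 kainate receptor genes, 0 of 1 kainate receptor DEGs and 2 of 22 partner genes, and took all genes called from 4449 to 299 and DEGs from 1544 to 133. With GC content from 1 transcript, chosen after seeing the data, these counts were 0, 0, 0, 3, 268 and 122. Without a filter on low counts, 1 AMPA receptor gene, 12 partner genes and 2665 genes in all were called, from many more genes tested. Leaving out each mouse in turn gave 1 to 2 AMPA receptor genes, 0 to 2 kainate receptor DEGs, 2408 to 4105 genes called and 1008 to 1926 DEGs, from fewer samples. Other changes of normalization, test or filter gave 3 AMPA receptor genes at most and, where they moved a count, by no more than 1.5 times. DESeq2 called 3 AMPA receptor genes (Gria1, Gria2 and Gria3) and 2 kainate receptor genes, among 3935 genes (23.0%). No AMPA receptor gene was a DEG under any alternative, by edgeR or DESeq2.

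The labels number the mice of each group 1 and 2 without saying that a number is shared, and with 2 pairs the check of the deviations (correlation 0.224 over 17144 genes) does not settle it, so the pairing was not used. With the replicate block all 4 AMPA receptor genes were called, among 5281 genes (30.8% of those tested), and Cnih2 as well (-0.60, edgeR adjusted p = 0.0078). With the replicate block and the length and GC correction together, 1 AMPA receptor gene (Gria1), 1 kainate receptor gene (Grik5), 0 kainate receptor DEGs, 9 partner genes, 2335 genes (13.6%) and 383 DEGs were called. Except where a value or the number of genes or samples shows it, the cause of these changes was not tested.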
